A study of Mus musculus with 4 samples.

Results

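The 7 genes that encode the Cip/Kip and Ink4 inhibitors of cyclin-dependent kinases (CDKs) were read in 4 RNA sequencing libraries from mice, each of cells in the gate for long-term haematopoietic stem cells. The members were taken by gene symbol: Cdkn1a, Cdkn1b and Cdkn1c (Cip/Kip) and Cdkn2a, Cdkn2b, Cdkn2c and Cdkn2d (Ink4). All 7 were found among 51912 Ensembl genes. Wild-type (WT) mice gave 2 libraries and Fam122a knockout (KO) mice gave 2, all C57BL/6 at 8 to 12 weeks, and every library pooled 3 animals. They are written WT 1, WT 2, KO 1 and KO 2 by replicate. The gate took lineage-negative Sca1+ Kit+ cells that lacked CD34 and Flk2. The labels do not give how Fam122a was deleted, in which cells, or what the WT mice carried. The values were taken as FPKM, a level scaled to the length of the gene and the size of the library, and this unit was inferred from the files.

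CDK inhibitors stop the cell cycle before DNA replication. Ink4 proteins bind CDK4 and CDK6 and keep D cyclins from them, whereas Cip/Kip proteins bind cyclin and CDK together and block mainly CDK2 complexes. When both are relieved, the retinoblastoma proteins are phosphorylated and E2F factors switch on replication genes. In stem cells of the marrow, p57 (Cdkn1c) and p27 (Cdkn1b) are known for maintaining dormancy, p21 (Cdkn1a) for the p53 response to stress, and p16 and p19Arf (Cdkn2a) for ageing and exhaustion, with Cdkn2a held silent by Polycomb proteins.

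WT 2 stood apart and is shown separately from the comparison, which sets both KO libraries against WT 1 alone. Its median over 76 cytosolic ribosomal protein genes was 13.2 FPKM, against 302 to 445 FPKM in the other libraries. Loci without an Ensembl name held 53.9% of its summed FPKM, against 9.14% in WT 1 and 1.74% and 1.81% in KO. For 3265 coding genes spanning more than 16 exonic lengths, its median was 27.6 FPKM, against 7.22 FPKM in WT 1. In KO that median was 0.92 and 1.02 FPKM, so WT 1 lay between WT 2 and KO on both of these measures. Low values of single-exon genes implied 2500000 fragments in WT 2 and 4260000 to 6820000 in the others. Fam122a, which checks the labels, was listed at 0 in both KO libraries and had 18.4 FPKM in WT 1 and 7.46 FPKM in WT 2. The labelled cell type was read from 12 stem cell markers, with genes of the gate named after their values were seen. Ly6a, the Sca1 gene, was at 201.1 FPKM in WT 1, 230 and 205 FPKM in KO 1 and KO 2, and 0 in WT 2. Kit was at 81.7 FPKM in WT 1 against 93.5 and 129 FPKM in KO. Of the genes for surface proteins that the gate excludes, Cd34 was at 179 FPKM in WT 1 against 87.7 and 62.1 FPKM in KO, and Flt3 (Flk2) at 26.2 against 36.2 and 24.7 FPKM. Genes of mature cells were abundant: the 8 neutrophil markers summed to 165368 FPKM in WT 1 against 70685 and 61819 FPKM in KO.

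Of the 7 inhibitor genes, 5 were at 1 FPKM or more in WT 1 and in both KO libraries. Each of these 5 lay above WT 1 in both KO libraries, as did 42.5% of all genes tested. None of the 5 passed the test against WT 1. As deposited, Cdkn2d had the highest level and Cdkn1a the largest difference, 2.40 times WT 1. That order of differences turned under other settings: Cdkn1b and Cdkn1c exceeded Cdkn1a under quantile normalization, Cdkn2c did without KO 1, and Cdkn2d did with all 4 libraries. Cdkn2a and Cdkn2b were at the limit of detection in all 4 libraries.

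**Figure D1:**
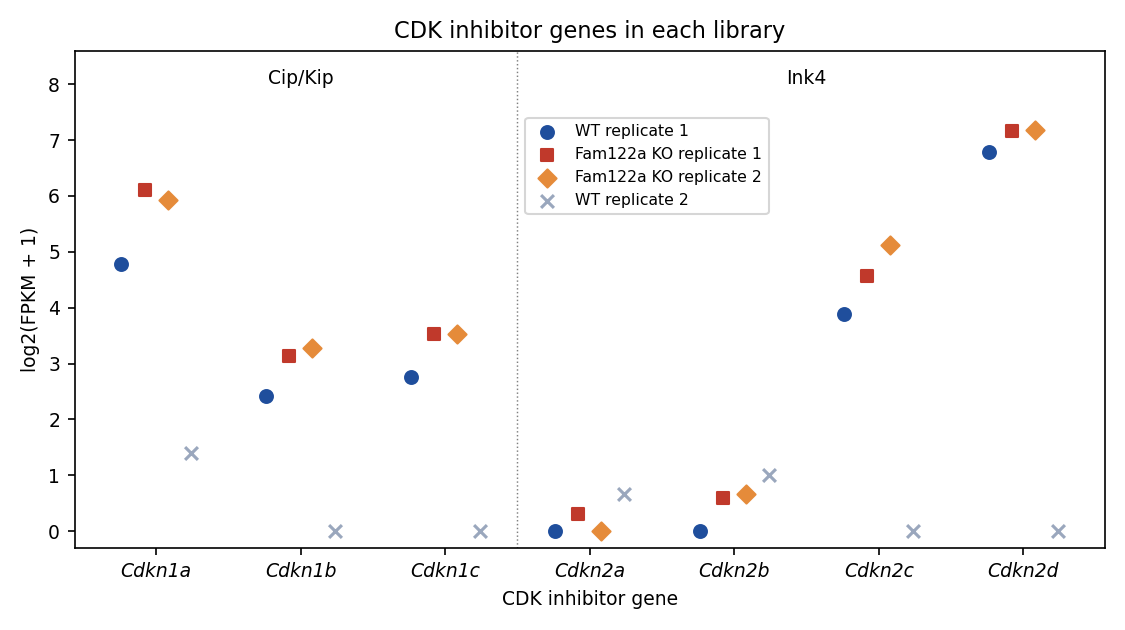
Level of each CDK inhibitor gene in each library, as log2(FPKM + 1) on the vertical axis, with 1 point per library and no error bars. For Cdkn1a, Cdkn1b, Cdkn1c, Cdkn2c and Cdkn2d both KO points lie above WT 1, as in 42.5% of all genes tested. Cdkn2a and Cdkn2b stay near 0, and WT 2 is listed at 0 for Cdkn1b, Cdkn1c, Cdkn2c and Cdkn2d.

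Cdkn1a (ENSMUSG00000023067, GRCm38 chromosome 17, 29090976 to 29100727, plus strand) encodes p21, the inhibitor that p53 induces. It was at 26.6 FPKM in WT 1, 67.9 and 59.8 FPKM in KO 1 and KO 2, and 1.65 FPKM in WT 2. The KO libraries were 2.55 and 2.25 times WT 1 and differed from each other by 1.14 times, so the gap to the WT library was wider than the gap within the KO pair. The KO mean was 63.8 ± 5.71 FPKM (SD, n = 2). Among protein-coding genes, Cdkn1a lay above 80.4% in WT 1 and above 91.7% and 90.3% in KO.

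Cdkn1a has a pair of annotated starts in RefSeq, and their upstream sequences are shown because this member had the largest difference as deposited. Those of Cdkn1b, a Cip/Kip gene at a low level, and Cdkn2b, an Ink4 gene near 0, are shown beside them. Each run is the 250 bases before the start, 5′ to 3′ on the gene's strand, from RefSeq on GRCm38.p6. Capitals mark matches on either strand to 5 motifs whose letters follow the sequences, the paired core of a p53 element, the GC box, the CCAAT box, the FOXO core and the E2F core.
Cdkn1a upstream start, chr17:29090729-29090978 + strand: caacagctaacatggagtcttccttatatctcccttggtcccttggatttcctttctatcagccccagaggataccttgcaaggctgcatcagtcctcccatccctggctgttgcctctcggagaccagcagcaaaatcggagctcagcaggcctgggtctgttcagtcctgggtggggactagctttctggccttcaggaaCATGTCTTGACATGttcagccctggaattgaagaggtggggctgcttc
Cdkn1a downstream start, chr17:29093519-29093768 + strand: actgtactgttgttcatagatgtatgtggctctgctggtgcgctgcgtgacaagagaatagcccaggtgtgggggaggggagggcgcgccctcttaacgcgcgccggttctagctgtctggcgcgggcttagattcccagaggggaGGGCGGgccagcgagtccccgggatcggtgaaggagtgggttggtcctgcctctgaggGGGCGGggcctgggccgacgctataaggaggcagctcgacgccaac
Cdkn1b, chr6:134920151-134920400 + strand: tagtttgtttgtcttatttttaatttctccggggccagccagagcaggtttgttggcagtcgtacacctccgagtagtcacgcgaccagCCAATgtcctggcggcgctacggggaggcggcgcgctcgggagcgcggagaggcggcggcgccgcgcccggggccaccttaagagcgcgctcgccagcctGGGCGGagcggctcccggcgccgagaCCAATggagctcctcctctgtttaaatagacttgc
Cdkn2b, chr4:89311033-89311282 - strand: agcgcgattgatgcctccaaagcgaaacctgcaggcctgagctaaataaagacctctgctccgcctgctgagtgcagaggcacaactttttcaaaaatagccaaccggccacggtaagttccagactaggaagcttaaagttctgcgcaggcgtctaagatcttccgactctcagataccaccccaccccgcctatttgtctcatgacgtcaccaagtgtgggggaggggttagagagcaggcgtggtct

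The upstream start of Cdkn1a held the paired p53 core (CATGNNNNNNCATG), beginning 48 bases before the start, and no GC box. This pattern was in 161 of 32851 windows of the same length (0.490%), and a p53 element upstream of Cdkn1a is textbook knowledge. The downstream start of Cdkn1a held 2 GC boxes (GGGCGG), a motif in 32.7% of windows, and 19 CpG pairs against 2 at the upstream start. Cdkn1b held 1 GC box and 2 CCAAT boxes, a motif named by its letters and held by 33.8% of windows, and Cdkn2b held none of the 5 motifs. Of the 9 windows of the 6 members with an entry, 0 held the FOXO core (TGTTTAC), found in 3.17% of all windows. The E2F core (TTCCCGC), found in 3.82%, was in 1 window of Cdkn2a and 1 of Cdkn2c. A match describes the letters and is not evidence of binding. The deposited values are per gene, so the starts cannot be told apart.

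Cdkn1b (ENSMUSG00000003031, chromosome 6, 134920401 to 134925513, plus strand) encodes p27, which is degraded through Skp2 as cells enter S phase. It was at 4.37 FPKM in WT 1, 7.76 and 8.68 FPKM in KO and 0 in WT 2. The KO libraries were 1.78 and 1.99 times WT 1, with a mean of 8.22 ± 0.65 FPKM (SD, n = 2). Cdkn1c (ENSMUSG00000037664, chromosome 7, 143458339 to 143461050, minus strand) encodes p57 and is expressed from the maternal allele. It was at 5.79 FPKM in WT 1, at 10.5 FPKM in each KO library and at 0 in WT 2. Both KO libraries were thus 1.81 and 1.82 times WT 1. The ratio of Cdkn1b to Cdkn1c, which a single scale factor per library cannot move, was 0.75 in WT 1 and 0.74 and 0.83 in KO.

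Among the Ink4 genes, Cdkn2d (ENSMUSG00000096472, chromosome 9, 21288410 to 21291407, minus strand) encodes p19Ink4d, a CDK4 and CDK6 inhibitor that is unrelated to p19Arf. It was at 109 FPKM in WT 1, 143 FPKM in each KO library and 0 in WT 2. The KO libraries were each 1.31 times WT 1, with a mean of 143 ± 0.085 FPKM (SD, n = 2). It lay above 95.7% of protein-coding genes in WT 1 and 96.6% in each KO library. In WT 2 its level was at least 43.7-fold lower than in WT 1, against a floor of 3 fragments on the shortest transcript of 691 bp (2.49 FPKM). On the same floor, Cdkn2c, Cdkn1b and Cdkn1c were at least 10.3-fold, 5.63-fold and 1.40-fold lower in WT 2 than in WT 1.

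Cdkn2c (ENSMUSG00000028551, chromosome 4, 109660876 to 109667189, minus strand) encodes p18, an Ink4 inhibitor that limits stem cell self-renewal. It was at 13.7 FPKM in WT 1, 22.8 and 33.7 FPKM in KO and 0 in WT 2. The KO libraries were 1.66 and 2.46 times WT 1 and differed from each other by 1.48 times, the widest KO pair among the 5 expressed members. Its KO mean was 28.2 ± 7.73 FPKM (SD, n = 2).

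Cdkn2b and Cdkn2a lie 11646 bp apart on chromosome 4, both on the minus strand. Cdkn2b (ENSMUSG00000073802, 89306299 to 89311039) encodes p15, a target of TGF-beta signalling. It was at 0 in WT 1, 0.51 and 0.59 FPKM in KO and 1.01 FPKM in WT 2. With its single transcript of 1390 bp, these values correspond to 0, 3.97, 4.02 and 2.98 fragments. In WT 1, 3 fragments would have given 0.62 FPKM, so a difference between the groups was not detectable at this depth. Cdkn2a (ENSMUSG00000044303, 89274471 to 89294653) encodes p16 and p19Arf from separate first exons, which the per-gene value does not separate. It was at 0 in WT 1, 0.23 and 0 FPKM in KO and 0.58 FPKM in WT 2. These correspond to about 1 fragment wherever it was above 0, and 3 fragments would have given 1.17 FPKM in WT 1 and up to 0.73 and 0.83 FPKM in KO. Mtap, the nearest coding gene on the other side of Cdkn2a, was at 20.2 FPKM in WT 1 against 19.6 and 17.8 FPKM in KO.

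Summed over the 7 genes, the family was at 160 FPKM in WT 1, 253 and 257 FPKM in KO and 3.24 FPKM in WT 2. The order of levels was the same in WT 1 and both KO libraries for the 5 expressed members, namely Cdkn2d, Cdkn1a, Cdkn2c, Cdkn1c and Cdkn1b. In KO, the values of 1 gene in both libraries did not overlap those of the next gene in this order, and in WT 1 a single library gives no spread. Cdkn2d held 68.4% of the family sum in WT 1 and 56.6% and 55.8% in KO. Cdkn1a held 16.7% in WT 1 and 26.8% and 23.3% in KO. Its ratio to Cdkn2d was 0.24 in WT 1 and 0.47 and 0.42 in KO. The Cip/Kip genes together held 23.0% in WT 1 and 34.1% and 30.8% in KO.

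**Figure D2:**
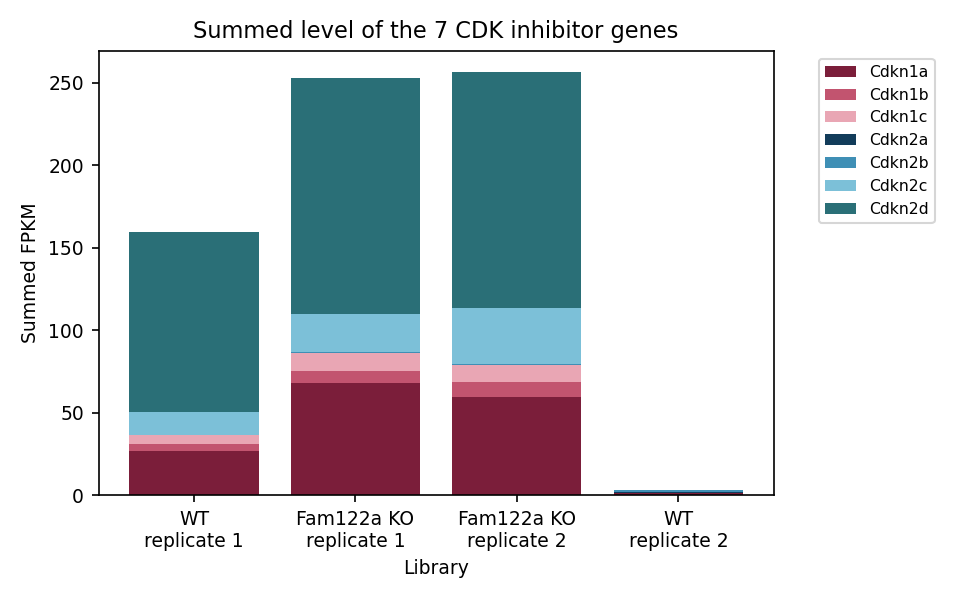
Summed FPKM of the 7 CDK inhibitor genes in each library, with 1 bar per library and the genes stacked, and no error bars. Cdkn2d fills most of each bar in WT 1 and in KO, the Cdkn1a part is larger in both KO bars, and WT 2 sums to 3.24 FPKM.

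Against WT 1, 0 of the 5 tested members passed an adjusted p of 0.05 in limma, and 3 had an unadjusted p under 0.05, each higher in KO. Over all 15867 genes tested, 9.83% were called (0.454% higher and 9.37% lower), and 13.2% had an unadjusted p under 0.05 on the higher side. Both KO libraries lay above WT 1 in 5 of 5 tested members and in 42.5% of all genes tested. The median log2 difference was 0.78 over the tested members and -0.0021 over all genes tested. Cdkn2a and Cdkn2b, whose mean was under 1 FPKM, were not tested. The spread in this fit comes from the KO pair alone, and the single WT library was assumed to vary like it.

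The log2 differences are on the log2(FPKM + 1) scale, which understates low genes. Cdkn1a had a difference of 1.23 (SE 0.14, limma adjusted p = 0.0789), larger than in 95.1% of the genes tested. Among the fits against WT 1 it passed under quantile normalization alone (1.16, limma adjusted p = 0.0486), where 16.3% of all genes were called, 5.45% as higher. Cdkn2c was at 0.96 (SE 0.35, limma adjusted p = 0.224). Cdkn1b was at 0.78 (SE 0.21) and Cdkn1c at 0.76 (SE 0.18), with limma adjusted p of 0.166 and 0.149. Cdkn2d was at 0.39 (SE 0.07, limma adjusted p = 0.120), larger than in 69.1% of the genes tested. With no filter on low values, Cdkn1c and Cdkn2d passed with the same differences (limma adjusted p = 0.0437 and 0.0496). In that setting 33.1% of 30258 genes were called, 2.52% as higher.

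The size of these differences moved with the scaling. Scaling to equal totals and quantile normalization each raised the median of all genes tested to 0.21, and scaling to equal median ratios over genes of short genomic span lowered it to -0.26. The median of the tested members lay above that of all genes by 0.78 as deposited and by 0.77, 0.95 and 0.79 under these 3 scalings. Equal totals and the scaling to short-span genes use a single factor per library. That factor moves members and all genes nearly alike, so the gap could hardly change under them. The 5 tested members are themselves short-span genes, and their median under the scaling to such genes was 0.54. In that scaling Cdkn2d fell to 0.11 (SE 0.07), so its difference was close to that of short-span genes in general, while Cdkn1a was still at 0.95 (SE 0.14). Cdkn2d was at 0.62 with equal totals, and quantile normalization gave Cdkn1b 1.37 and Cdkn1c 1.21. The profile of WT 2 was also taken off WT 1, in proportion to their signal at loci without an Ensembl name. The 5 differences were then 0.30 to 1.15, the median of all genes was 0.23 and the gap between the medians narrowed to 0.48. A pseudocount of 5 gave a gap of 0.52.

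**Figure D3:**
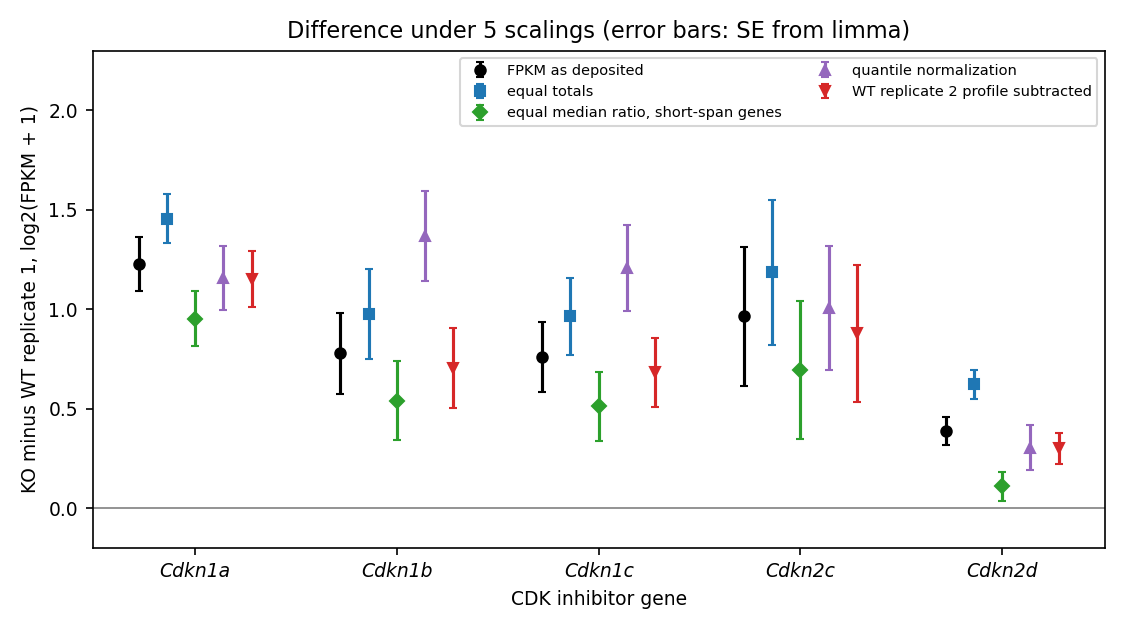
Log2 difference of KO minus WT 1 for the 5 tested CDK inhibitor genes under 5 scalings, with error bars of 1 SE from limma. Every point lies above 0, Cdkn1a between 0.95 and 1.46, and Cdkn2d at 0.11 under the scaling to short-span genes.

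With all 4 libraries, 0 of 5 tested members passed and 0 had an unadjusted p under 0.05 in limma. Over 20434 genes, 0.00% were called, and 0.577% had an unadjusted p under 0.05 on the higher side. Both KO libraries lay above both WT libraries in 5 of 5 tested members and in 27.1% of all genes tested. The differences were 2.92 for Cdkn1a (SE 1.38), 1.99 for Cdkn1b (SE 1.16), 2.14 for Cdkn1c (SE 1.22), 2.90 for Cdkn2c (SE 1.46) and 3.78 for Cdkn2d (SE 2.23), each with a limma adjusted p of 0.418. These sizes rest on the near-absence of the genes in WT 2, where ribosomal protein genes were low too. Without WT 1, when WT 2 is the only WT library, the 5 members were called higher in KO, at 3.20 to 7.17, among 7103 genes called on that side of 20739 tested (34.2%, and 76.9% in either direction).

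The targets of the inhibitors were measured in the same libraries. Of all genes tested against WT 1, 49.9% lay above 0 as deposited, which stands beside the list counts from here on. Of 12 cyclin and CDK genes that the inhibitors bind, 0 passed in limma and 11 lay above 0 (median 0.45), or 9 under the scaling to short-span genes (median 0.17). Cdk6, a partner of D cyclins, was at 46.6 FPKM in WT 1 against 84.0 and 90.0 FPKM in KO, and Ccnd3, a D cyclin, at 333 against 682 and 974 FPKM. Ccna2, the cyclin of S phase, was at 112 FPKM in WT 1 against 159 and 179 FPKM in KO. The family sum was 0.13 times the sum of these 12 genes in WT 1 and 0.14 and 0.11 times in KO. The ratios in KO thus lay on both sides of that in WT 1.

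Of 13 retinoblastoma and E2F genes, 0 passed and 11 lay above 0 (median 0.46), or 10 under the scaling to short-span genes (0.19). Under quantile normalization E2f1 and E2f7 passed, and with no filter E2f1 did. E2f1, an activator of replication genes, was at 20.7 FPKM in WT 1 against 41.9 and 44.2 FPKM in KO. E2f2, of the same class, was at 12.9 against 34.1 and 55.0 FPKM. E2f7, a repressor that feeds back on E2F targets, was at 4.09 against 13.9 and 12.0 FPKM. E2f4, which acts as a repressor in resting cells, was at 48.4 FPKM in WT 1 against 99.8 and 134 FPKM in KO. Across WT 1 and both KO libraries, the genes of the lists whose centred log2 profile lay nearest to that of Cdkn1a were E2f7, Phc2 and E2f1, at root mean square distances of 0.11, 0.13 and 0.14 among 149 candidates. With 3 libraries this describes little more than the size of the KO difference.

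Of 12 genes marking dividing cells, 1 rose, 0 fell and 12 lay above 0 (median 0.73), also 12 under the scaling to short-span genes (0.46). With no filter Cenpf was called too. The gene called as deposited was Mki67, the Ki-67 proliferation antigen, at 21.6 FPKM in WT 1 against 61.8 and 66.6 FPKM in KO (difference 1.53, SE 0.10, limma adjusted p = 0.0473). That call did not hold with a pseudocount of 0.1 or under the other 2 filters that drop low genes. It was also lost under the scaling to short-span genes, after subtraction of the WT 2 profile and with all 4 libraries, each taken alone. The ratio of Cdkn1a to Mki67 was 1.23 in WT 1 and 1.10 and 0.90 in KO. The part of dividing cells in the levels of the inhibitors was not tested. In pooled cells, more cells of a type and more RNA per cell cannot be told apart.

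**Figure D4:**
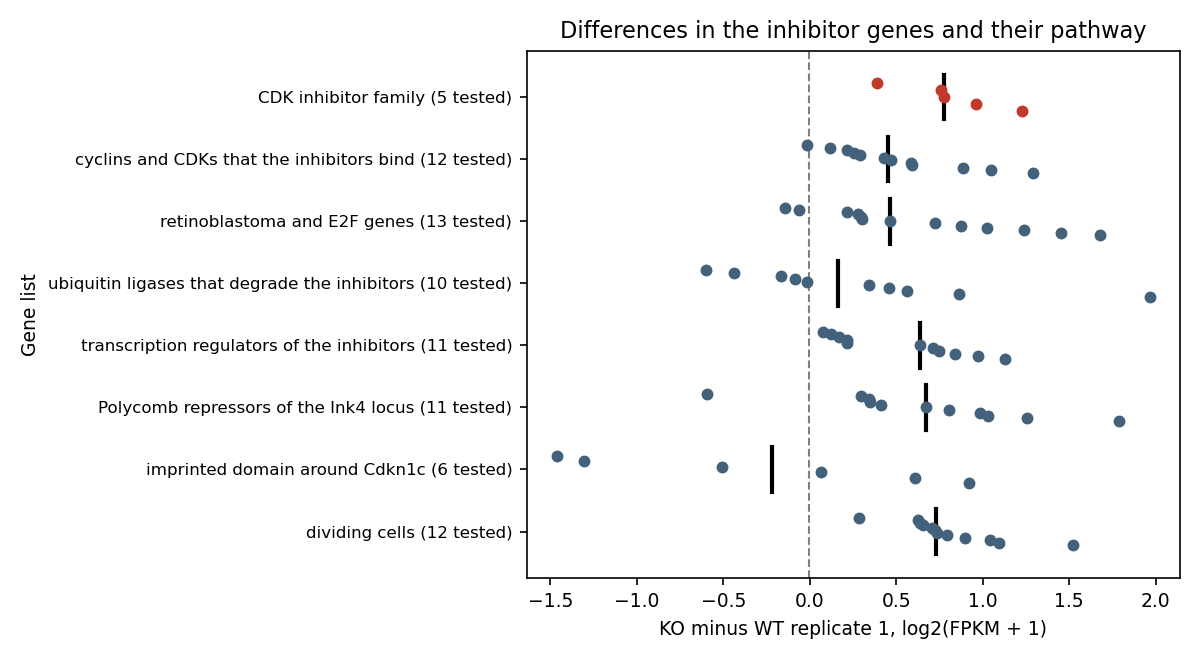
Log2 difference of KO minus WT 1 for each tested gene of 8 lists, with 1 point per gene, a black bar at each list's median and a dashed line at the median of all genes tested (-0.0021). The 5 tested inhibitor genes lie between 0.39 and 1.23, and the 12 dividing-cell genes all lie above 0.

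The regulators of the inhibitors gave no call in limma. Of the 11 transcription regulators tested, 11 lay above 0 (median 0.64), or 6 under the scaling to short-span genes and 10 under quantile normalization. Smad4, the shared SMAD of TGF-beta signalling, was at 31.9 FPKM in WT 1 against 55.9 and 52.6 FPKM in KO. Zbtb17, the MIZ1 factor that activates Cdkn1a and Cdkn2b, was at 12.9 against 22.6 and 20.98 FPKM. Gfi1, a repressor that restrains stem cell cycling, was at 14.3 against 25.9 and 32.6 FPKM, and Foxo1, which activates Cdkn1b, at 6.84 against 12.9 and 20.2 FPKM. In WT 2, Smad4 was at 84.1 FPKM and Foxo1 at 26.95 FPKM, above both KO libraries. Zbtb17, at 14 FPKM in WT 2, and Gfi1, at 0, lay below both. Trp53, chosen after its values were seen, was at 91.8 FPKM in WT 1 against 99.4 and 94.4 FPKM in KO. Its negative regulator Mdm2, chosen likewise, was at 37.5 against 39.2 and 42.7 FPKM. The ratio of Cdkn1a to Trp53 was 0.29 in WT 1 and 0.68 and 0.63 in KO, and the ratio to Mdm2, itself a p53 target, was 0.71 in WT 1 and 1.73 and 1.40 in KO.

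Of 10 genes of the ubiquitin ligases that degrade the inhibitors, 0 passed, 5 lay above 0 and 5 below (median 0.16). Under the scaling to short-span genes the median was -0.11, and with equal totals 8 lay above 0. Skp1a and Rbx1, shared subunits of the SCF ligase, were at 276 and 115 FPKM in WT 1. In KO, Skp1a was at 186 and 177 FPKM and Rbx1 at 86.4 and 83.2 FPKM. Ddb1 and Cul4a, of the ligase that degrades p21 during replication, were at 61.3 and 34.7 FPKM in WT 1. In KO, Ddb1 was at 102 and 124 FPKM and Cul4a at 46.3 and 50.1 FPKM. The members of this list thus lay on both sides.

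Of 11 Polycomb genes, whose products keep Cdkn2a silent, 0 passed and 10 lay above 0 (median 0.67), also 10 under the scaling to short-span genes (0.41). Phc2 was at 31.5 FPKM in WT 1 against 63.5 and 63.4 FPKM in KO, Ring1 at 4.15 against 10.6 and 12.1 FPKM, Cbx2 at 2.63 against 9.14 and 14.5 FPKM, and Eed at 60.0 against 74.3 and 73.5 FPKM. All are subunits of Polycomb complexes. Phc2 passed with equal totals, with no filter and under quantile normalization, and Ring1 and Cbx2 under quantile normalization only.

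Genes whose exons overlap those of an inhibitor gene could share reads with it, since the library kit does not mark strand. The coding neighbours below share 0 exonic bp with the members, so their values do not bear on shared reads. Gm44732, antisense to Cdkn1c, shares 625 exonic bp with it and was listed at 0 in all 4 libraries. AC167363.2, which shares 273 exonic bp with Cdkn1a on the other strand, was not analysed here. Next to Cdkn1a, Srsf3, a splicing factor, was at 350 FPKM in WT 1 against 325 and 344 FPKM in KO, and Rab44, a Rab GTPase gene 13418 bp away, was at 24.2 against 54.3 and 54.4 FPKM. Slc22a18, on the side of Cdkn1c away from Kcnq1, was at 6.13 FPKM in WT 1 against 4.88 and 3.29 FPKM in KO. Kri1 and Ap1m2, on the sides of Cdkn2d, were at 9.06 and 2.44 FPKM in WT 1. In KO, Kri1 was at 9.46 and 12.6 FPKM and Ap1m2 at 0.49 and 0.12 FPKM. Gpr19 and Apold1 beside Cdkn1b were at 6.47 and 0.56 FPKM in WT 1. In KO, Gpr19 was at 7.58 and 7.59 FPKM and Apold1 at 1.32 and 1.67 FPKM. Faf1 beside Cdkn2c was at 24.9 FPKM in WT 1 against 27.4 and 27.3 FPKM in KO, whereas 4930522H14Rik on its other side was at 0.38 FPKM and 0 in both KO libraries. Dmrta1, beyond Cdkn2b, was at 0 in WT 1 and 0.04 and 0 FPKM in KO.

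Markers of other blood cells also differed between these libraries, and their part in the inhibitor values was not tested. All 10 erythroid markers lay above 0 against WT 1, or 8 under the scaling to short-span genes, beside 49.9% of all genes tested as deposited. Their summed levels were 52073 FPKM in WT 1 against 60135 and 80133 FPKM in KO. Of 10 B cell markers 9 lay above 0, with sums of 283 against 1464 and 2227 FPKM. All 8 neutrophil markers lay below 0, or 7 with equal totals or quantile normalization. No marker of these 3 lists was at 0 in WT 1 or in KO. Of the 11 stem cell markers tested, 5 lay above 0 and 6 below, with 2 above 0 under the scaling to short-span genes and 7 with equal totals. Above 0 were also 2 of 8 T and NK cell (5 under quantile normalization), 4 of 8 monocyte, macrophage and dendritic, 4 of 6 megakaryocyte (each 3 under the scaling to short-span genes), 2 of 6 mast cell, basophil and eosinophil, and 1 of 5 stromal and endothelial markers. The mast cell, basophil and eosinophil markers summed to 1366 FPKM in WT 1 against 9653 and 5362 FPKM in KO, mostly from the eosinophil granule genes Prg2 (947 against 8593 and 4666 FPKM) and Epx (41.8 against 748 and 403 FPKM). The T and NK cell list summed to 654 against 397 and 318 FPKM, mostly from Nkg7 (628 against 378 and 299 FPKM). The monocyte, macrophage and dendritic list summed to 16023 against 11225 and 8643 FPKM. The megakaryocyte list summed to 139 against 101 and 63.5 FPKM and the stromal and endothelial list to 37.5 against 37.3 and 31.7 FPKM. No marker passed the test in limma as deposited. Under 1 or more of the alternatives, markers that passed as higher in KO included Vpreb1, Vpreb3, Ebf1, Igll1, Cd8a, Prg2 and Epx. Those that passed as lower were Tek, Kdr, Ms4a2, Elane, Camp, Gp9 and Col3a1. Of these, Tek (79.65 against 41.46 FPKM) and Kdr (9.83 against 2.9 FPKM) were higher in WT 2 than in WT 1, and the rest were lower in WT 2. Tek spans 28.8 times its exonic length.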

How the data were processed

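RNA of the 4 pools was amplified with SMART-Seq v4, per the labels' protocols. The deposited values have no header and were taken as FPKM, and the sources used here do not give the tool behind them. Per the submitters' processing notes, HISAT2 2.1.0, STAR 2.7.1a, bcl2fastq and the builds mm10 and GRCm38.p5 were used, in roles not stated. Symbols came from a table of gene identifiers, coordinates and lengths from GENCODE M21 (GRCm38) and promoters from RefSeq (6 of 7 members matched, not Cdkn1c). The 35791 unnamed MSTRG loci were left out of the tests.

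Fragments per library were inferred from whole steps of low single-exon genes, after 210 to 250 bp were taken off the length. Of these genes 82.6% to 88.9% lay within 0.1 of a whole number. Floors of 3 fragments cover counting error only. Genes with a mean of at least 1 FPKM over the fitted libraries entered limma-trend (limma 3.58.1 in R 4.3.3) as log2(FPKM + 1). Calls were Benjamini-Hochberg adjusted p-values under 0.05 over all genes. The script was run on simulated data in which the WT library had the noise of the KO pair. That run therefore does not test how the real WT library varies. The main comparison left WT 2 out, and a second held all 4 libraries. Nothing says that the pools of a group shared no animals, so p-values measure only the spread between libraries. Genes were short-span when their span was below 4 exonic lengths.

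The members, gene lists and tests were chosen with earlier results of these data known. By rule, all members, their coding neighbours and exon-overlapping genes, up to 4 genes of smallest p per list and the 3 genes nearest to Cdkn1a could be named.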

Additional observations from a re-analysis of the deposited data

How the results depend on the processing

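Under the alternatives the 5 tested members were above 0 in 60 of 60 values for the comparison with WT 1 (5 of them from the 4-library fit) and in 55 of 55 values for that with both WT libraries. Both KO libraries lay above both WT libraries for these members, so most of these values could not change sign. Only the rescalings and the subtraction of the WT 2 profile could have reversed it. Of the 50 and 55 values with a test, 47 and 50 kept the same side of the threshold, and 3 and 5 moved to a call. In the fits against WT 1 alone, adjusted p ranged from 0.0486 to 0.106 for Cdkn1a, 0.0556 to 0.228 for Cdkn1b, 0.0437 to 0.210 for Cdkn1c, 0.119 to 0.306 for Cdkn2c and 0.0496 to 0.396 for Cdkn2d (limma), and with 4 libraries it was 0.418 for each. Leaving out KO 1 or KO 2 leaves no residual degrees of freedom, so only the differences were computed, and the genes called were not. They were 1.14 and 1.32 for Cdkn1a and 1.24 and 0.69 for Cdkn2c.

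Counts of all genes called against WT 1 changed with the settings. From 72 higher and 1487 lower (4.62% of calls higher), they went to 0 and 0 with 4 libraries, 29 and 672 with a pseudocount of 0.1, 25 and 196 with at least 1 FPKM in 2 libraries, 761 and 9265 with no filter, and 18 and 515 with a mean of 5 FPKM. The higher count was 113 with equal totals, 865 under quantile normalization (33.5% of calls, beside 1716 lower) and 45 under the scaling to short-span genes. The lower count was 487 after subtraction of the WT 2 profile. The cause was not tested, beyond the fewer genes entering under the filters and the WT library added. With 4 libraries the counts of 0 higher and 0 lower ranged up to 7103 and 8850 with 1 library left out. Without WT 1 they were 7103 and 8850, and without WT 2 they were 72 and 1487.

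With the replicate number as a block, the 4-library fit called 0 genes higher and 0 lower (limma, 191 and 1932 at an unadjusted p under 0.05, against 118 and 2364 without it), so the block changed no call. Same-numbered libraries deviated from their group means with a correlation of 0.039 over 20434 genes, and they share only a number. No paired analysis was possible against WT 1 alone because the groups then share 1 number. The depth limits Cdkn2a and Cdkn2b, which cannot be compared at 0 to 4 fragments.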

Other observations

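The genes of the imprinted domain around Cdkn1c lay on both sides of WT 1. Of its 8 genes, 6 were tested against WT 1, 3 lay above 0 and 3 below (median -0.22, or -0.48 under the scaling to short-span genes and 0.08 under quantile normalization), and 0 passed in limma, with 2 higher and 2 lower at an unadjusted p under 0.05. Phlda2, a placental growth gene that is maternally expressed like Cdkn1c, was at 6.42 FPKM in WT 1 against 1.73 and 2.31 FPKM in KO, below WT where Cdkn1c was above it. Osbpl5, a lipid transfer gene, was at 24.8 FPKM in WT 1 against 8.35 and 8.33 FPKM in KO, and it passed as lower under quantile normalization. With no filter, where 33.1% of all genes were called, Osbpl5, Kcnq1, Tssc4 and Nap1l4 passed. Tssc4 and Nap1l4 were at 33.8 and 82.9 FPKM in WT 1. In KO, Tssc4 was at 63.6 and 65.8 FPKM and Nap1l4 at 129 and 125 FPKM. Kcnq1ot1, the non-coding RNA that silences the paternal copy of the domain, was chosen after its values were seen. It was at 0.84 FPKM in WT 1, 0.61 and 0.72 FPKM in KO and 2.12 FPKM in WT 2. Kcnq1, whose span is 78.3 times its exonic length, was at 1.48 and 54.4 FPKM in WT 1 and WT 2 and at 0.02 FPKM in each KO library.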
